A study of Mus musculus with 6 samples.

Results

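Hepatocytes take bile acids and other organic anions from sinusoidal blood, secrete them across the canalicular membrane into bile, and return a part of them to blood across the basolateral membrane. The sodium-dependent carrier NTCP and the sodium-independent OATP carriers serve uptake, the ATP-driven pumps BSEP and MRP2 serve biliary export, and MRP3, MRP4 and the heterodimer OSTα/OSTβ serve basolateral efflux. Uptake and canalicular export are part of the mature hepatocyte program, and in cholestasis the basolateral pumps are known to act as an overflow route. The RNA of 10 genes of this transport system was examined, 5 for sinusoidal uptake (Slc10a1, Slco1a1, Slco1a4, Slco1b2 and Slco2b1), 2 for canalicular export (Abcb11 and Abcc2) and 3 for basolateral efflux (Abcc3, Abcc4 and Slc51b), out of 52459 genes in the count table. The genes were chosen by symbol, with earlier results of these livers known, and Abcc4 was selected on its fall in the comparison of the groups, so its difference is given as a description with no test.

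All livers came from male C57BL6J Alb-Cre/Cas9 F1 mice, in which the albumin promoter drives Cre and Cre switches on Cas9 in hepatocytes. An AAV8 vector with a control guide RNA (sgCtrl, mice 5.1, 7.1 and 7.2) or a guide RNA against Prdx2 (sgPrdx2, mice 1.1, 1.3 and 3.2) was given intravenously at 4 to 5 weeks of age. Both groups received 100 mg/kg of the carcinogen diethylnitrosamine (DEN) 3 weeks after the vector and, from 1 week later, a choline-deficient high-fat diet (CDA-HFD) for 6 months, and livers were taken at 8 months of age, so neither group is a healthy reference. Cells other than hepatocytes were not edited by design. The study selected the guide by Western blot in a mouse cell line. By immunohistochemistry of livers of this model it reports suppressed PRDX2 protein in hepatocytes, apart from PRDX2-positive islets that the vector probably did not reach. Total counts were between 37462102 and 56865293 per liver, so that 3 counts, taken as the floor of detection, equalled 0.0555 to 0.0921 CPM (counts divided by the TMM-scaled library size in units of 1e6, the level used below unless another scale is named). Prdx2 RNA did not separate the groups (119 ± 11.6 CPM in sgCtrl and 120.0 ± 26.1 CPM in sgPrdx2 livers, SD, n = 3 each, log2 fold change 0.01 ± 0.18 SE, edgeR adjusted p = 0.983), so the RNA does not check the guide. Liver sgPrdx2 3.2 stood apart on the first principal component, which carried 44.9% of the variance (61.0, against 10.9 and 19.7 for the other sgPrdx2 livers and -39.4 to -26.0 for the sgCtrl livers), and values that moved most without it are given both ways.

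The plot of transporter RNA in each liver shows the 3 roles side by side. The uptake carriers Slc10a1, Slco1a4 and Slco2b1 lay higher in every sgPrdx2 than in any sgCtrl liver and Abcc4 lay lower, whereas the other 2 uptake carriers, the 2 canalicular pumps, Abcc3 and Slc51b overlapped between the groups. These directions hold for TMM-scaled counts, and under scaling to hepatocyte marker genes the values of Slco1a4, Slco1b2, Slco2b1, Abcb11, Abcc2, Abcc3 and Slc51b turned negative. By the edgeR quasi-likelihood test across all 17032 genes tested, 0 of the 9 members other than Abcc4 passed an adjusted p of 0.05, against 3.33% of all genes (567 genes, of which 305 rose and 262 fell, with 4241 at an unadjusted p under 0.05). By DESeq2, 3 of the 9 passed (Slc10a1, Slco1a4 and Slco2b1), against 14.0% of all genes, and edgeR without a filter on low counts called the same 3 genes, against 3.94% of all genes. In 3 of the 9, every sgPrdx2 liver was above every sgCtrl liver, which was so for 16.7% of all genes, and 0 of the 9 lay apart in the lower direction, in which Abcc4 did, as did 17.5% of all genes.

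**Figure D1:**
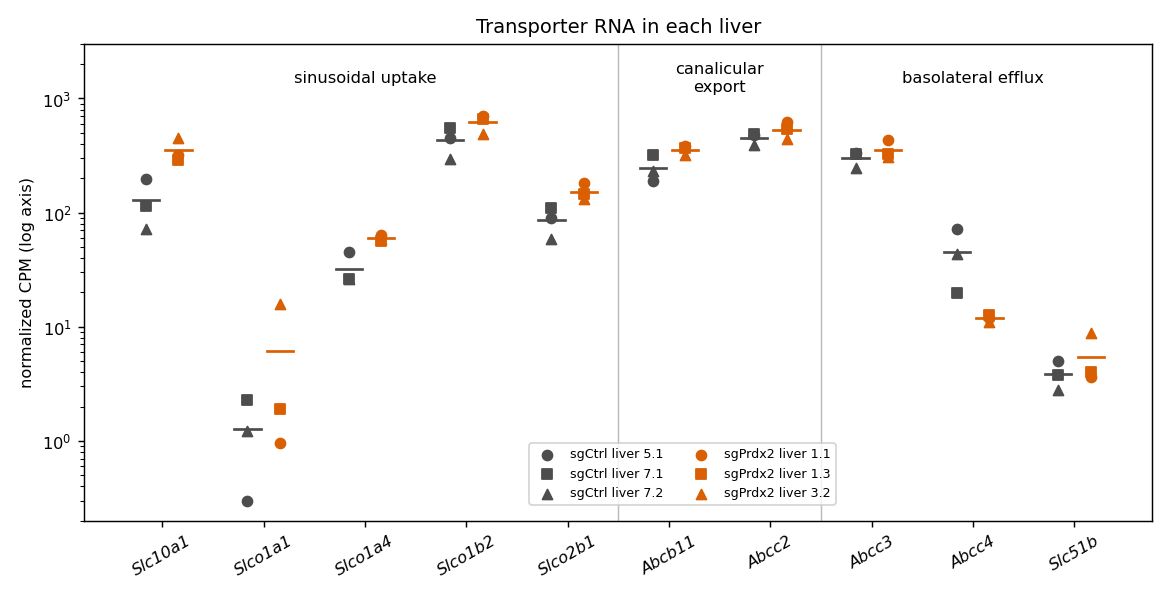
TMM-normalized CPM (log axis) of the 10 transporters in each sgCtrl liver (grey) and sgPrdx2 liver (orange), with a horizontal line at each group mean (n = 3). Every sgPrdx2 liver is above every sgCtrl liver for Slc10a1, Slco1a4 and Slco2b1 on this scale, every sgPrdx2 liver is below for Abcc4, and 1 liver, sgPrdx2 3.2, carries the mean of Slco1a1 and Slc51b.

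Promoter windows of 1 gene of each role are shown so that Slc10a1, higher in every sgPrdx2 liver, and Abcc4, lower in every one, can be read beside the bile salt export pump gene Abcb11. Each runs from 250 bases before to 50 bases after the annotated start (RefSeq, GRCm38.p6), 5′ to 3′ on the strand of the gene, and capitals mark every match of the motifs listed after the sequences.
Slc10a1, chr12:80968656-80968955, minus strand: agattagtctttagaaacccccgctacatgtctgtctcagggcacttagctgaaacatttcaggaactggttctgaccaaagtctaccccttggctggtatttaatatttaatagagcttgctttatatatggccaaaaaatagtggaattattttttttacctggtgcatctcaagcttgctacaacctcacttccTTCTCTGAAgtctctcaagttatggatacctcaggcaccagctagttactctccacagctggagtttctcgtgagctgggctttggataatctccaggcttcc
Abcb11, chr2:69342567-69342866, minus strand: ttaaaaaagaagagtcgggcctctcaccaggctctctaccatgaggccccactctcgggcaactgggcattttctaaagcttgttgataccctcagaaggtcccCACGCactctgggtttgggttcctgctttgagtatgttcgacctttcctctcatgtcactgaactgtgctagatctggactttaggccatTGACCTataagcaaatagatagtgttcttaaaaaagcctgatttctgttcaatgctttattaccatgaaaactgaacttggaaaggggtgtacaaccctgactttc
Abcc4, chr14:118706170-118706469, minus strand: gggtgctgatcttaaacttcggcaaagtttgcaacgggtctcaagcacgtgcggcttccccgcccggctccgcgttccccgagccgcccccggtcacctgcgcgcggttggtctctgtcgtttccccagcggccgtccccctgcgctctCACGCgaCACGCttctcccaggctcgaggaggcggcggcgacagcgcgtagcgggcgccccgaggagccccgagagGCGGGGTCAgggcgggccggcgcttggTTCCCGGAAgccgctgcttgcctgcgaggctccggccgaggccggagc
The letters searched on both strands were the nuclear receptor half-site AGGTCA, its inverted repeat with 1 base between (IR-1, AGGTCANTGACCT, the element FXR prefers), the antioxidant response element core TGACNNNGC, the STAT element TTCNNNGAA, the HNF1 half-site GTTAAT and the xenobiotic response element core GCGTG, and the half-site is contained in the IR-1 element. RefSeq windows were found for 9 of the 10 genes (13 windows, all but Abcc3). The half-site stood in 6 of the 13 windows (Abcb11 at -56, Slco1b2, Slco1a1, Slc51b, Abcc2 and a second start of Slc10a1) and in 16.3% of all 32851 promoter windows. IR-1 stood in 0 of the 13 and in 0.00913% of all windows. The antioxidant response element core stood in both Abcc4 windows (GCGGGGTCA at -25 in the printed window, on the other strand) and in that of Abcc2, and in 12.4% of all windows. STAT elements stood in 6 of the 13, among them Slc10a1 at -53 and Abcc4 at 3 past its start, and in 8.3% of all windows. The xenobiotic core stood in the windows of Abcb11 (-146) and Abcc4 (-101 and -94) and in 32.4% of all, and the HNF1 half-site only in that of Slco1b2 among the members and in 7.1% of all. A match of letters is a description of the window and was not tested as a binding site.

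Per kilobase of exon, a scale on which genes can be compared, Slc10a1 (109.5 CPM per kb over the 6 livers) and Slco1b2 (106.3) had the highest mean levels. Abcb11 (58.8), Abcc2 (57.9) and Abcc3 (57.6) followed, then Slco2b1 (20.0), Slco1a4 (7.16), Slc51b (6.56), Abcc4 (4.46) and Slco1a1 (0.707). Compared liver by liver, Slco1b2 was above Abcb11, Abcc3 above Slco2b1 and Slco2b1 above Slco1a4 in 6 of 6 livers. Every other pair of neighbours in this order changed places in at least 1 liver, Slc10a1 and Slco1b2 among them. With the longest transcript in place of the union of exons, 4 of the 10 changed rank, the leading pair among them. The rank of Abcc4 was 7 of 10 in sgCtrl and 9 of 10 in sgPrdx2 livers.

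Slc10a1 (chr12:80953183-80968705, minus strand, GRCm38, 13 distinct exons) encodes NTCP, the main sodium-dependent carrier of conjugated bile acids. It stood at 198, 115 and 71.4 CPM in sgCtrl livers 5.1, 7.1 and 7.2 and at 319, 291 and 451 CPM in sgPrdx2 livers 1.1, 1.3 and 3.2, the order of livers used for all values below. The lowest sgPrdx2 liver was above the highest sgCtrl liver, and the sgCtrl livers differed more among themselves (highest over lowest 2.78) than the sgPrdx2 livers (1.55). The means were 128 ± 64.5 and 353 ± 85.5 CPM (SD, n = 3 each), a log2 fold change of 1.46 ± 0.36 SE that missed the threshold in edgeR (adjusted p = 0.0655) and passed it in DESeq2 (1.47, adjusted p = 4.38e-04). Leaving out 1 liver at a time gave 1.18 to 1.93. In bulk liver RNA, a larger share of hepatocytes and more RNA per hepatocyte cannot be told apart, and hepatocyte markers moved with this gene. Of 10, 10 were above 0 in log2 fold change and 5 passed. The groups lay apart upward for 8 of the 10, against 16.7% of all genes. Their summed level was 74920 to 82730 CPM in sgCtrl and 131500 to 175600 CPM in sgPrdx2 livers. Most of this sum was Alb (58810 to 62570 and 97610 to 128000 CPM). Set against albumin, the ratio of Slc10a1 to Alb counts, multiplied by 1000, was 3.35, 1.83 and 1.21 in sgCtrl and 2.50, 2.98 and 3.52 in sgPrdx2 livers. On that ratio the groups overlapped, since sgCtrl liver 5.1 lay above 2 of the sgPrdx2 livers.

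The 4 OATP genes differed widely in level and in spread. Slco1b2 (chr6:141629518-141686646, plus strand), the mouse counterpart of the human OATP1B carriers of bilirubin and many drugs, stood at 446, 549.6 and 297 CPM in sgCtrl and 702, 660.4 and 489 CPM in sgPrdx2 livers. Its groups overlapped, because sgPrdx2 liver 3.2 was below sgCtrl liver 7.1, and the difference did not pass (0.52 ± 0.25, edgeR adjusted p = 0.241). Slco2b1 (chr7:99657804-99711340, minus strand), a carrier of steroid sulfates and drugs, stood at 89.7, 109 and 58.6 CPM in sgCtrl and 181, 144.5 and 131 CPM in sgPrdx2 livers. The sgPrdx2 livers were all higher, with a log2 fold change of 0.83 ± 0.24 that missed the threshold in edgeR (adjusted p = 0.0925) and passed in DESeq2 (adjusted p = 0.0114). Exons of 2 genes on the opposite strand cover 471 and 78 bases of its exons, and since strandedness is not given, reads from those bases cannot be told apart.

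Slco1a4 (chr6:141805440-141856199, minus strand) encodes a broad OATP of the sinusoidal membrane that carries bile acids and cardiac glycosides. It stood at 44.9, 26.1 and 26.0 CPM in sgCtrl and 63.3, 57.0 and 58.4 CPM in sgPrdx2 livers. The sgPrdx2 livers were all higher and lay within a narrow range (highest over lowest 1.11), and the log2 fold change of 0.88 ± 0.22 missed the threshold in edgeR (adjusted p = 0.0678) and passed in DESeq2 (adjusted p = 0.00398). Slco1a1 (chr6:141907282-141946962, minus strand), an OATP known to be higher in male than in female mouse liver under growth hormone, was low in these male livers, with 13, 103 and 64 counts (0.297, 2.29 and 1.22 CPM) in sgCtrl and 42, 102 and 512 counts (0.957, 1.89 and 15.7 CPM) in sgPrdx2 livers. Apart from sgPrdx2 liver 3.2 the values of both groups lay in the same range. The log2 fold change was 2.26 ± 1.07 (edgeR adjusted p = 0.235) with all livers and 0.18 without sgPrdx2 liver 3.2. Slco1a1, Slco1a4 and Slco1b2 lie in 1 cluster on chromosome 6, and 1.64% of the 50-base stretches of Slco1a1 and 1.61% of those of Slco1a4 recur in each other or in Slco1a5 and Slco1a6, so few reads of this pair could be exchanged by the counting.

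Male-biased growth hormone targets, listed beside Slco1a1, had 11 of 12 log2 fold changes above 0 with a median of 1.04 and 0 of 12 passed by edgeR. The median was 0.58 with housekeeping scaling, 0.06 with hepatocyte marker scaling and 0.60 without sgPrdx2 liver 3.2, and over all genes tested it was -0.02. The 3 with the smallest p were Serpina1e (2.42 ± 0.69, edgeR adjusted p = 0.0911), Nudt7 (1.18 ± 0.39, 0.124) and Hsd3b5 (2.51 ± 0.89, 0.141). Without sgPrdx2 liver 3.2, the highest liver for each of them, their log2 fold changes were 1.81, 0.70 and 1.15. Hsd3b5 had few counts, with 2, 13 and 7 in sgCtrl and 15, 19 and 69 in sgPrdx2 livers, the first under the floor of 3 counts. The summed level of the 12 male-biased targets was 729.6 to 2004 CPM in sgCtrl and 1911 to 5171 CPM in sgPrdx2 livers. The groups overlapped, and the sgPrdx2 livers other than 3.2 reached 1985 CPM at most. Of 10 female-biased targets tested, 0 passed, 5 were above and 5 below 0, and the median was 0.07.

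Abcb11 (chr2:69238282-69342616, minus strand) encodes BSEP, the pump that limits the secretion of bile salts into bile. It stood at 191, 321 and 232 CPM in sgCtrl and 383, 370.5 and 317.5 CPM in sgPrdx2 livers. The highest sgCtrl liver, 7.1, lay just above the lowest sgPrdx2 liver, 3.2, and the log2 fold change of 0.53 ± 0.21 did not pass (edgeR adjusted p = 0.169). Opposite-strand exons of 2 other genes cover 136 and 19 of its exon bases. Abcc2 (chr19:43782192-43840740, plus strand) encodes MRP2, which exports bilirubin glucuronides and glutathione conjugates. It stood at 479, 491 and 389 CPM in sgCtrl and 622, 538 and 443 CPM in sgPrdx2 livers. The groups overlapped, and the log2 fold change of 0.24 ± 0.18 did not pass (edgeR adjusted p = 0.432) and was -0.12 when counts were scaled to 6 housekeeping genes.

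Abcc3 (chr11:94343295-94392997, minus strand) encodes MRP3, a basolateral pump for glucuronides and bile acids. It stood at 330.2, 325 and 245 CPM in sgCtrl and 434, 327 and 306 CPM in sgPrdx2 livers. The groups overlapped, and the log2 fold change of 0.24 ± 0.19 did not pass (edgeR adjusted p = 0.458) and was also -0.12 under housekeeping scaling. Slc51b (chr9:65412714-65422955, minus strand) encodes OSTβ, 1 of the 2 subunits of a facilitated bile acid carrier. It stood at 5.00, 3.76 and 2.78 CPM in sgCtrl and 3.60, 3.99 and 8.75 CPM in sgPrdx2 livers (146 to 219 and 158 to 285 counts). Only sgPrdx2 liver 3.2 was outside the sgCtrl range, and the log2 fold change was 0.50 ± 0.37 with all livers (edgeR adjusted p = 0.441) and -0.00 without that liver. Exons of Rasl12 on the opposite strand cover 91 bases of its 709 exon bases. The partner gene Slc51a, which encodes OSTα and is needed for transport, had 7 counts in sgCtrl liver 5.1 and 0 in each of the other 5 livers, where the floor was 3 counts.

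Abcc4 (chr14:118482692-118706219, minus strand, 40 distinct exons) encodes MRP4, a basolateral pump that exports bile acids together with glutathione and also cyclic nucleotides and conjugated steroids. It stood at 71.9, 19.8 and 43.4 CPM in sgCtrl and 12.0, 12.8 and 11.1 CPM in sgPrdx2 livers (892 to 3145 and 361 to 690 counts). Every sgPrdx2 liver was below every sgCtrl liver, and the sgCtrl values covered a wider range. Abcc4 was selected on these same values, so its level and its spread are both descriptions, and neither was tested. The means were 45.0 ± 26.0 and 11.9 ± 0.837 CPM (SD, n = 3 each), 3.77-fold lower in sgPrdx2 livers, with a log2 fold change of -1.91 ± 0.40. The highest sgCtrl liver was 3.62 times the lowest, whereas this ratio was 1.15 among sgPrdx2 livers. Over the 13282 genes with at least 1 CPM in every liver, the median of the same ratio was 1.22 in sgCtrl and 1.34 in sgPrdx2 livers and its 90th percentile 1.67 and 1.84. The size of the difference rested in part on sgCtrl liver 5.1, without which it was -1.41. Leaving out any other single liver gave -2.27 to -1.85. Only 0.125% of its 50-base stretches recur in other genes.

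The difference of Abcc4 stood against the other pumps of the same livers. Per kilobase, Abcb11 was 3.30 to 20.1 times Abcc4 in sgCtrl and 35.6 to 39.7 times in sgPrdx2 livers. Abcc3, on the same membrane, was 5.15 to 18.4 times Abcc4 in sgCtrl and 28.7 to 40.6 times in sgPrdx2 livers. Both ratios were free of overlap and need no scaling between libraries, but they contain the gene selected on its fall and are therefore descriptions. Slc10a1 relative to Abcc3, a ratio without Abcc4, ranged from 0.754 to 1.56 among sgCtrl and from 1.90 to 3.82 among sgPrdx2 livers, and Slc10a1 relative to Abcb11 overlapped (0.721 to 2.43 and 1.84 to 3.32).

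**Figure D2:**
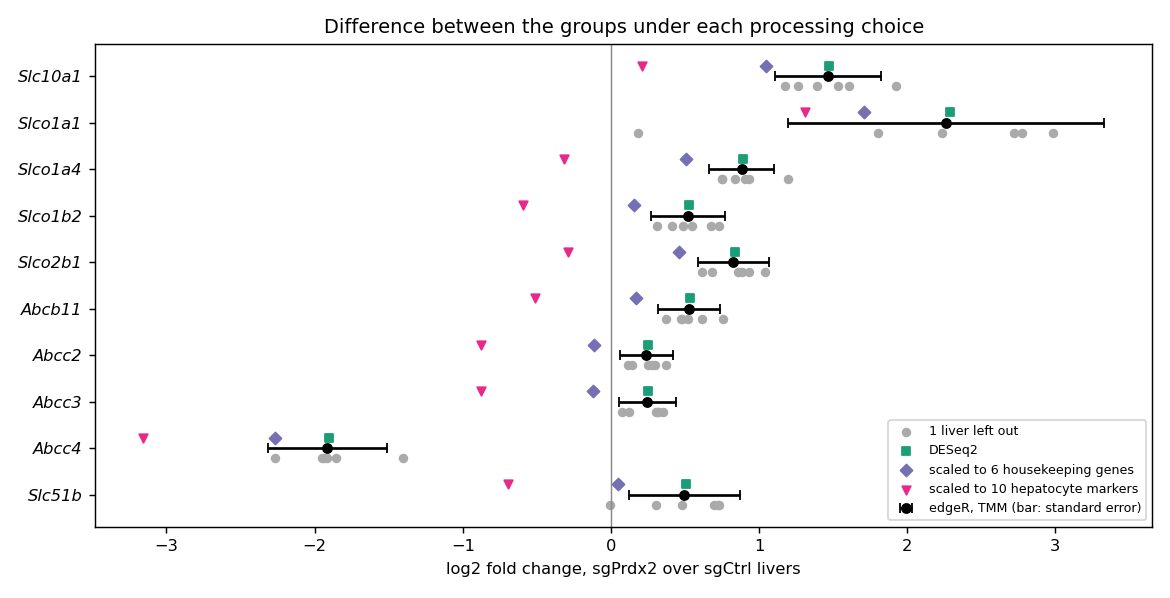
Log2 fold change of sgPrdx2 over sgCtrl livers for each transporter, with the edgeR value and its standard error (black) and the values by DESeq2, with 1 liver left out, and with counts scaled to 6 housekeeping genes or 10 hepatocyte markers. Abcc4 is below 0 throughout, Slc10a1 and Slco1a1 are above 0 throughout, the other 7 turn negative under hepatocyte marker scaling, Abcc2 and Abcc3 also under housekeeping scaling, and Slc51b is at -0.00 without sgPrdx2 liver 3.2.

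Summed by role, the uptake genes held 203, 186 and 107 CPM per kb in sgCtrl and 328, 299.7 and 338 CPM per kb in sgPrdx2 livers. The groups did not overlap (165 ± 51.3 and 322 ± 19.9 CPM per kb). The canalicular pair held 101 ± 16.2 and 132 ± 17.1 CPM per kb and the basolateral genes 65.2 ± 11.2 and 72.0 ± 9.80 CPM per kb, and both sums overlapped. Within each liver, which removes the scaling between libraries, uptake genes made up 42.5% to 54.5% of the 10 genes' level in sgCtrl livers, and 58.7% to 65.1% in the sgPrdx2 group. The basolateral share was 17.6% to 21.4% and 13.0% to 14.9%, and the canalicular share overlapped (25.0% to 36.1% and 21.9% to 27.0%). The groups lay apart in the uptake and basolateral shares, as the plot of RNA by role shows. These shares are parts of 1 sum that holds Abcc4, the gene selected on its fall, and the mean basolateral sum itself was not lower in sgPrdx2 livers. With Abcc4 left out, the uptake share was 43.7% to 56.2% among sgCtrl and 58.9% to 65.3% among sgPrdx2 livers, and that of Abcc3 and Slc51b was 16.9% to 19.2% and 12.7% to 14.6%. Slc10a1 alone accounted for 12.9% to 24.2% and 26.0% to 39.5% of the level, whereas the share of Slco1b2 overlapped.

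**Figure D3:**
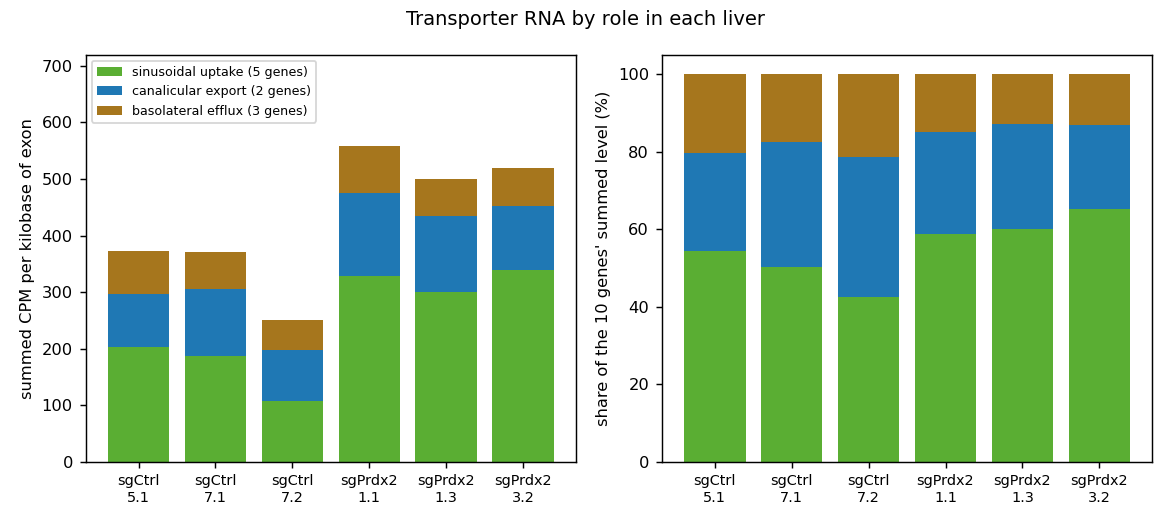
Summed CPM per kilobase of exon of the 5 uptake, 2 canalicular and 3 basolateral genes in each liver (left, bars from 0) and the share of each role in the sum (right, percent). The uptake share reaches 54.5% at most among sgCtrl livers and is at least 58.7% among sgPrdx2 livers.

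The choice of scaling set the direction for part of the genes. Over all genes tested, the median log2 fold change was -0.02 with TMM, -0.39 with total counts, -0.38 with 6 housekeeping genes and -1.11 with 10 hepatocyte markers. With TMM the 6 housekeeping genes themselves had a median of 0.43, with 5 above and 1 below 0, and 0 passed by edgeR. Under the last, Slc10a1 was at 0.21, Slco1a1 at 1.31, Slco1a4 at -0.32, Slco1b2 at -0.59, Slco2b1 at -0.29, Abcb11 at -0.51 and Slc51b at -0.69. Abcc2 (-0.87, edgeR adjusted p = 0.0139) and Abcc3 (-0.88, 0.0153) passed there as lower and Slco1a1 as higher (0.00480), where 74.8% of all genes passed, and Abcc4 was at -3.16. Only Slc10a1 and Slco1a1 exceeded the hepatocyte marker median of 1.08 with TMM. Relative to the median of all genes under each scaling, the values ran from 1.33 to 1.48 for Slc10a1 and from 0.80 to 0.90 for Slco1a4. They ran from 0.24 to 0.27 for Abcc2 and from -2.04 to -1.89 for Abcc4. A scaling shifts all genes by nearly the same amount, and this subtraction removes that shift. The narrow ranges therefore do not show which scaling is right.

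Of 37 other transporters of liver membranes, 34 passed the filter on low counts, and 2 rose and 2 fell by edgeR. These and all other calls by edgeR were lost when sgCtrl liver 5.1, sgCtrl liver 7.2, sgPrdx2 liver 1.1 or sgPrdx2 liver 1.3 was left out, since 0 of all genes then passed (3114 to 3993 had an unadjusted p under 0.05). Among 17 other uptake carriers tested, Slc17a2, a sodium phosphate cotransporter family gene, rose (73.0, 90.2 and 55.6 CPM in sgCtrl and 171, 150.2 and 127.5 CPM in sgPrdx2 livers, log2 fold change 1.04 ± 0.20, edgeR adjusted p = 0.0455), although under hepatocyte marker scaling it was at -0.06 and under housekeeping scaling it did not pass (0.67, edgeR adjusted p = 0.131). The list had 12 log2 fold changes above 0 and a median of 0.48 with TMM, against -0.68 under hepatocyte marker scaling. Slco1a5 and Slco1a6, the neighbours of Slco1a1 and Slco1a4, were too low to be tested, with at most 0.137 and 0.369 CPM in any liver. Of 10 other canalicular exporters 0 passed by edgeR, while 4 passed by DESeq2. The 3 with the smallest p were the sterol pump subunits Abcg5 (0.75 ± 0.18, edgeR adjusted p = 0.0612) and Abcg8 (0.71 ± 0.17, 0.0624) and the drug pump gene Abcb1b (-0.74 ± 0.18, 0.0638).

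Among the 7 other genes listed for basolateral efflux and tested, which are ABC family genes and include the potassium channel subunit gene Abcc9, 3 passed. Abcc1, which encodes MRP1 and is low in resting hepatocytes, fell from 26.3, 26.3 and 26.1 CPM in sgCtrl to 13.6, 15.0 and 11.5 CPM in sgPrdx2 livers (log2 fold change -0.97 ± 0.13, edgeR adjusted p = 0.0328). Abcc5, a cyclic nucleotide exporter, fell from 50.3, 44.5 and 42.5 CPM to 27.3, 31.3 and 21.8 CPM (-0.77 ± 0.16, edgeR adjusted p = 0.0466). Abcc6, a hepatocyte pump linked to ATP release, rose from 98.6, 139.8 and 90.7 CPM to 234, 220.0 and 193 CPM (0.98 ± 0.19, edgeR adjusted p = 0.0455), and was at -0.10 under hepatocyte marker scaling and at 0.61 under housekeeping scaling (edgeR adjusted p = 0.134). In all 3 the groups did not overlap. Markers of other cells also moved with these differences: macrophage markers had 9 of 9 log2 fold changes below 0 (1 passed, Gpnmb, summed level 1492 to 2004 CPM in sgCtrl and 977.7 to 1134 CPM in sgPrdx2 livers), and leukocyte markers 9 of 10 (2 passed, Cd8a and Itgam, 137 to 148 and 68.2 to 98.1 CPM). Their part in the values of Abcc1, Abcc4 and Abcc5 was not tested.

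**Figure D4:**
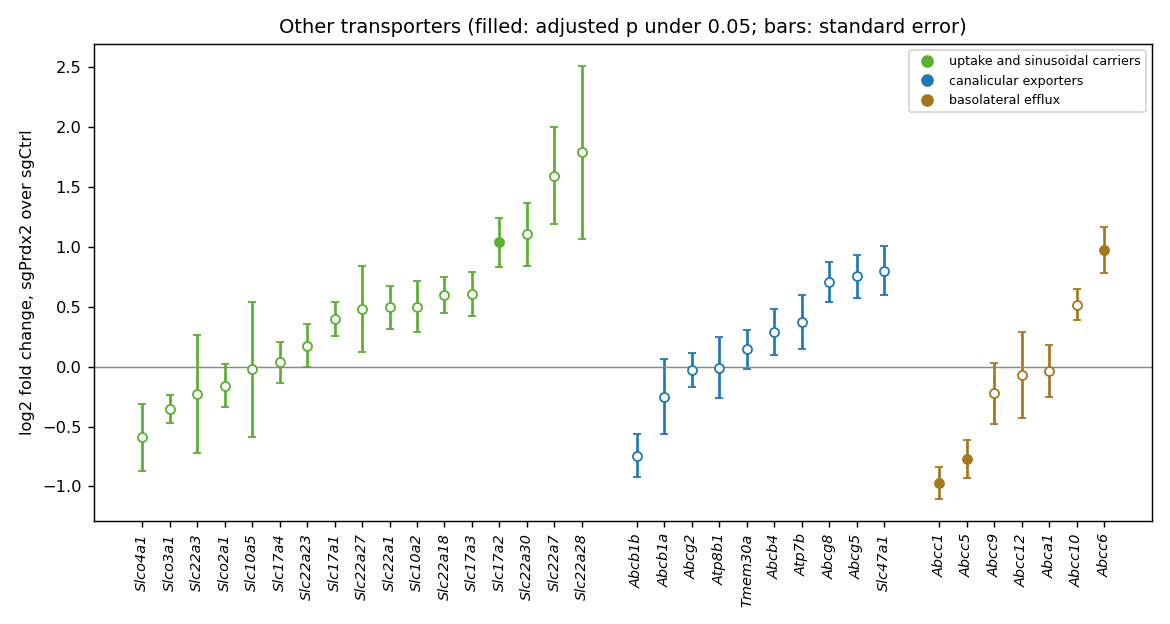
Log2 fold change of sgPrdx2 over sgCtrl livers (bars, standard error) for the 34 tested transporters outside the 10 genes, by role, with TMM scaling. Filled points pass an edgeR adjusted p of 0.05, which are Slc17a2 and Abcc6 above 0 (both slightly below 0 under hepatocyte marker scaling) and Abcc1 and Abcc5 below 0.

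Cholangiocytes also carry MRP-type and bile acid transporters. Their markers were 1676 to 1904 CPM in sgCtrl and 1261 to 1430 CPM in sgPrdx2 livers in sum, with 9 of 10 log2 fold changes below 0, a median of -0.35 and 0 of 10 passed. The defining markers Krt7, Krt19 and Epcam were present in every liver. Krt19 stood at 94.2, 32.3 and 38.4 CPM in sgCtrl and 27.8, 37.1 and 44.3 CPM in sgPrdx2 livers. Its highest value was in sgCtrl liver 5.1, which also had the highest Abcc4, as was so for 6 of the 10 markers among the sgCtrl livers, whereas for 2 (Sox9 and Cftr) that liver was the lowest of the 3. The groups lay apart for 4 of the 10, Epcam, Spp1, Cftr and Muc1, each lower in sgPrdx2 livers, which was so for 17.5% of all genes. They overlapped for the other markers, Krt7, Krt19 and Sox9 among them. The part of cholangiocyte RNA in the level of Abcc4 was not tested. Of the other markers, endothelial (1 of 8, Pecam1) and liver tumor lists (4 of 8, Ly6d, Golm1, Cd44 and Prom1) had genes that fell and 0 that rose. The tumor markers Afp (-0.14 ± 0.31, edgeR adjusted p = 0.802), Gpc3 (-0.10 ± 0.37, 0.888) and Igf2 (1.02 ± 0.77, 0.440) did not pass, and 2 of the 8 were above 0. Of 7 stellate markers tested 0 passed, with a median of -0.50. The summed level of the stellate list was 1009 to 1459 CPM in sgCtrl and 889.0 to 890.1 CPM in sgPrdx2 livers. Most of it came from 2 collagen genes, Col3a1 (522 to 858 and 440 to 470.5 CPM) and Col1a1 (245 to 363 and 200 to 257 CPM). The groups overlapped for Col1a1, and of the 7 markers tested 5 were below and 2 above 0.

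Regulators of these transporters were examined next, since nuclear receptors such as FXR (Nr1h4), SHP (Nr0b2), PXR (Nr1i2) and CAR (Nr1i3) are known to set their transcription. Of 19 regulators 0 passed by edgeR and 6 of 18 by DESeq2, 16 were above 0 and the median was 0.38, against 0.02 under housekeeping scaling and -0.72 under hepatocyte marker scaling. Nr1h4 stood at 91.1, 92.6 and 79.0 CPM in sgCtrl and 143, 113 and 138 CPM in sgPrdx2 livers (0.59 ± 0.15, edgeR adjusted p = 0.0668). The groups did not overlap for Nr1h4, which was so for 16.7% of all genes in that direction. Under housekeeping scaling Nr1h4 was at 0.21 (edgeR adjusted p = 0.399). The groups overlapped for Nr0b2 (1.13 ± 0.45, edgeR adjusted p = 0.172), Nr1i2 (0.21 ± 0.20, 0.532) and Nr1i3 (0.80 ± 0.44, 0.294). The next by p were Cebpa, a factor of the mature hepatocyte (0.67 ± 0.18, edgeR adjusted p = 0.0772), and the vitamin D receptor gene Vdr (-1.42 ± 0.40, 0.0886).

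Genes induced by the antioxidant regulator NRF2 were listed because Abcc4 is among the known targets of that factor. Of 12, 3 fell and 0 rose by edgeR (5 fell by DESeq2), and the list median was -0.59. Macrophage markers lay lower in the same livers, as given with the basolateral pumps, and their part in the values of this list was not tested. Hmox1, which encodes heme oxygenase, fell from 125, 107 and 157 CPM to 62.7, 70.9 and 58.9 CPM (-1.01 ± 0.17, edgeR adjusted p = 0.0386). Srxn1, which encodes sulfiredoxin, the enzyme that reduces overoxidized peroxiredoxins, fell as well (-0.91 ± 0.19, adjusted p = 0.0466), as did the cystine carrier gene Slc7a11 (-1.31 ± 0.28, adjusted p = 0.0491; without sgPrdx2 liver 3.2, -1.35 and 0.0681). Other targets did not pass, among them Nqo1 (-0.74 ± 0.34, edgeR adjusted p = 0.219), Gclc (-0.38 ± 0.27, 0.417) and Gclm (0.18 ± 0.17, 0.520), and the gene of the factor itself, Nfe2l2, was at -0.17 ± 0.15 (0.524).

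Bile acid synthesis supplies the substrates of these transporters, and 2 of 16 of its genes rose by edgeR and 7 by DESeq2 while 0 fell, with a list median of 0.44 with TMM and -0.62 under hepatocyte marker scaling. Slc27a5, which encodes the bile acid CoA ligase needed to conjugate bile acids, rose from 203, 285 and 186 CPM to 750.0, 556 and 590.4 CPM (1.49 ± 0.21, edgeR adjusted p = 0.0342) and was at 0.42 under hepatocyte marker scaling, where it did not pass (0.233). Amacr, which encodes the racemase of side chain shortening, rose as well (0.82 ± 0.14, edgeR adjusted p = 0.0392), and was at -0.27 under hepatocyte marker scaling and at 0.44 under housekeeping scaling (adjusted p = 0.0961). Cyp7a1, the rate-limiting enzyme of the classical pathway, overlapped between the groups (82.1, 30.9 and 54.2 CPM against 70.5, 60.1 and 88.6 CPM, 0.39 ± 0.33, edgeR adjusted p = 0.485).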

How the data were processed

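RNA-Seq of 6 mouse livers (3 sgCtrl, 3 sgPrdx2, grouped by the sample labels) was analysed. The authors deposited whole-number counts of reads per gene and liver without normalization, and the submitters' processing notes name HISAT2, HTSeq, DESeq2 and the build GRCm38, while versions, annotation and strandedness are not given in the sources used here. Their second table holds their own DESeq2 comparison and was not used. Every column of counts belonged to a labelled liver (0 others).

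Counts were fitted in R 4.3.3 with edgeR 4.0.16 (filterByExpr with a minimum count of 10, TMM, glmQLFit and glmQLFTest, all 6 livers, no covariate), and a gene passed when its adjusted p (Benjamini-Hochberg, over all 17032 genes tested) was under 0.05. Standard errors are of log2 fold changes. The edgeR and DESeq2 fits were also run on counts simulated from the means, depths and dispersions of these livers, after the real counts had been fitted. Replicates are separate mice, and every pair within a group differed beyond sampling noise (chi-square per degree of freedom 31.9 to 117). Levels per kilobase use exon unions of GENCODE M21 (GRCm38), and shared stretches have 50 bases. Alternatives were RLE, upper-quartile, total-count and housekeeping scaling, DESeq2 1.42.0, no filter, at least 10 counts in every liver, and leaving out each liver, and scaling to 10 hepatocyte markers was added after seeing the data.

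The members and gene lists were chosen with earlier results of these data known. Named genes are the members, the called genes of each list or otherwise up to 3 with the smallest p, the first 3 markers of a list, and Prdx2. Abcc9, Slco1a5, Slco1a6, Slc51a, Sox9, Spp1, Cftr, Muc1, Col3a1, Nr0b2, Nr1i2, Nr1i3, Nqo1, Gclc, Gclm, Nfe2l2 and Cyp7a1 were named after their values were seen.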

Additional observations from a re-analysis of the deposited data

How the results depend on the processing

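Of 140 values of the 10 transporters under 14 alternatives, 128 kept their direction. The exceptions were, with total counts, Abcc2 (-0.13) and Abcc3 (-0.13), with housekeeping scaling, Abcc2 (-0.12) and Abcc3 (-0.12), with scaling to 10 hepatocyte markers, chosen after seeing the data, Slco1a4 (-0.32), Slco1b2 (-0.59), Slco2b1 (-0.29), Abcb11 (-0.51), Abcc2 (-0.87), Abcc3 (-0.88) and Slc51b (-0.69), and, without liver sgPrdx2 3.2, Slc51b (-0.0044). Relative to the median of all genes under the same scaling, each of the values listed for the first 3 settings was above 0. That subtraction removes the shift shared by all genes, so it is no separate check of the direction. The number of the 9 tested transporters that passed was 0 in the fit reported and 3 with no filter, 3 by DESeq2 and 3 with hepatocyte marker scaling. The number of genes passed overall was 567, and 3247 with total counts, 989 with housekeeping scaling, 12740 with hepatocyte marker scaling, 1128 without a filter and 2066 by DESeq2 (4367 at an unadjusted p under 0.05). Leaving out 1 liver gave 0 to 619 genes, and 0 to 0 of the 9 transporters, with 0 genes in the 4 fits without sgCtrl 5.1, sgCtrl 7.2, sgPrdx2 1.1 or sgPrdx2 1.3, where 3114 to 3993 genes had an unadjusted p under 0.05. The calls on single genes outside the 10 transporters are lost in those 4 fits.

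No paired analysis was possible because the groups share no mouse number. With 3 livers a group the number of mice limits precision. Counting error adds to it for genes with few counts, such as Slco1a1 (13 counts in 1 liver) among the transporters and Slc51a, Slco1a5 and Slco1a6 beside them. The role shares without Abcc4 were chosen after seeing the data. In the sgPrdx2 group they moved by less than the spread between livers. Abcc4 was low in that group (mean 1.87 CPM per kb), so leaving it out could move them little there. In sgCtrl livers the basolateral share was 17.6% to 21.4% with Abcc4 and 16.9% to 19.2% without it.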
